A study of Mus musculus with 2 samples.

Results

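The genes described here are 44 genes of cell division and the centromere, taken by symbol from the authors' deposited table of 38355 genes. All 44 symbols were found, each in 1 row, and all had reads. RNA was sequenced from cardiac ventricles of C57BL/6 mice aged 16 weeks, to compare ventricles with and without an inducible deletion of Tbx5, a T-box factor that binds DNA. The vTBX5KO sample carried Myh6-MerCreMer together with Tbx5LDN/LDN, and the Flox sample carried Tbx5LDN/LDN alone. Myh6-MerCreMer is a transgene whose Cre recombinase is made in cardiomyocytes, from the Myh6 promoter, and acts only when an oestrogen receptor ligand is given. Mice were given TX at 30 mg/kg per day over 3 days at 12 weeks of age and killed 4 weeks later, in the same words for both samples, so the Flox allele and the dosing are shared and the transgene is not.

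The labels name 1 sample per genotype, and the authors' deposited table compares a group B with a group A. Nothing in the labels or headers ties a letter to a genotype, and none was inferred, so each difference is group B over group A. The pooled means of the table resolved into 3 libraries of group B and 3 of group A, with size factors from 0.61 to 1.56. Within each letter the deepest library is number 1. Whether they came from separate animals is not stated, so p-values rest only on how these libraries vary, which may be technical. In whole ventricle, fewer cells of a type and less RNA per cell cannot be told apart. All 8 cardiomyocyte markers were abundant, from 30894 mean normalized counts for Myh7 to 579178 for Myh6 per the authors' deposited table. Tbx5 itself averaged 513 normalized counts with a log2 fold change of 0.92 and an adjusted p of 0.0575 per the authors' deposited table, and its level comes to 671 in group B and 354 in group A. Since the labels do not say which stretch of Tbx5 is removed, its level was not used to tie a genotype to a letter.

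A dividing cell copies its DNA with the MCM helicase and the nucleotide enzymes, then condenses its chromosomes and attaches them to the spindle through kinetochores, which assemble on centromeres marked by the histone H3 variant Cenpa. Cyclins and their kinases time these steps, the spindle checkpoint holds anaphase back until all chromosomes are attached, and kinesins and midbody proteins separate the daughters. Most cardiomyocytes of the adult mouse have left the cell cycle, and the dividing cells of the adult heart are largely non-myocytes. Cenpf is a very large coiled-coil protein of the nuclear matrix, the nuclear envelope and the outer kinetochore that binds microtubules. Its mouse form is also known as Lek1 and was studied in developing heart, where it has roles on the microtubule network outside mitosis.

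The windows before the transcription starts of the called genes Cenpf and Cenpa are shown beside those of the proliferation markers Mki67 and Top2a, to let the letters known from mitotic promoters be compared. Each window is the 250 bases before the RefSeq start on GRCm38.p6, written 5′ to 3′ on the strand of the gene. The Cenpf window is chr1:189688087-189688336 (minus strand), the Cenpa window chr5:30666636-30666885 (plus strand), the Mki67 window chr7:135716380-135716629 (minus strand) and the Top2a window chr11:99024190-99024439 (minus strand). Capitals mark CCAAT and also TTTGAA or TTCGAA, on either strand, and no marked match overlaps another.
Cenpf: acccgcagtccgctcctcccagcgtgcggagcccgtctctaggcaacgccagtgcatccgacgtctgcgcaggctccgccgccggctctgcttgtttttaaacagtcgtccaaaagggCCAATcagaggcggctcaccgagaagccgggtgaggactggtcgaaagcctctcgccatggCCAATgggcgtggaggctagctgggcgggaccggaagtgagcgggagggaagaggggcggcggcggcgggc
Cenpa: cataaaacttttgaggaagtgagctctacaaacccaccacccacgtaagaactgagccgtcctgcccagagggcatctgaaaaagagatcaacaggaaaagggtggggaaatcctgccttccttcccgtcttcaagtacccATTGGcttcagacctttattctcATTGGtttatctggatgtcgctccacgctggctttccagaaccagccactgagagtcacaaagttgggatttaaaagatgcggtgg
Mki67: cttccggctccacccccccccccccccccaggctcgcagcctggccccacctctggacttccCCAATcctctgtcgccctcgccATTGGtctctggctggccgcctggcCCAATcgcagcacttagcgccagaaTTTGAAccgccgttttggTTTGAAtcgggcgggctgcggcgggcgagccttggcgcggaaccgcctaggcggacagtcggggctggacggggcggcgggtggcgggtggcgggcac
Top2a: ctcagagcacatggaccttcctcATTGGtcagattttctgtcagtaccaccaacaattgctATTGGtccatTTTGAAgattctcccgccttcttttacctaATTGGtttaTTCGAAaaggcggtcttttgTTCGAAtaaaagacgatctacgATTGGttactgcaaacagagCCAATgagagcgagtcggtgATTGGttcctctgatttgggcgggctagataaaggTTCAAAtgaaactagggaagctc

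CCAAT, bound by the factor NF-Y, and the cell cycle genes homology region, searched as TTTGAA or TTCGAA, are features of promoters used in G2 and mitosis. The Cenpf and the Cenpa windows each held 2 CCAAT matches and no TTTGAA or TTCGAA on either strand. In Cenpf the CCAAT matches began 132 and 71 bases before the start, and in Cenpa their reverse complements began 109 and 86 bases before it. The RefSeq start of Cenpa lies 109 bases inside the gene as the authors' deposited table places it, so both of its matches fall within those gene bounds, while the starts of Cenpf, Mki67 and Top2a are the same in both. Mki67 had TTTGAA at 116 and 98 bases, and Top2a had these letters at 4 places. Of 37 members with a RefSeq window, 28 (75.7%) held CCAAT, against 37.5% of 27025 genes with a window. TTTGAA or TTCGAA was in 12 of 37 members (32.4%) and in 19.6% of all genes. The E2F letters TTTGGCGC, TTTCCCGC or TTTCGCGC were in 3 members, Cdk1, Mcm5 and Mcm6, and in 1.78% of all genes. The T-box site core GGTGTGA, added after the data were seen, was in Cenpq and Kif2c and in neither Cenpf nor Cenpa, against 3.84% of all genes. These are matches of letters in a short window and show no binding.

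Of the 44 members, 2 were lower in group B, Cenpf and Cenpa, and none was higher. Cenpf was 4.14-fold and Cenpa 1.55-fold lower in group B than in group A per the authors' deposited table. The other 30 members with an adjusted p in that table did not pass its threshold of 0.05, and 12 members with means up to 14.9 had none. The background per the authors' deposited table was 527 calls among 13230 genes (3.98%), of which 329 were lower in group B (2.49%) and 198 higher (1.5%). Read against it, 2 lower calls among 32 members is a small count, and it is carried by the genes named. The smallest adjusted p among the 30 members that did not pass was 0.219 per the authors' deposited table.

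**Figure D1:**
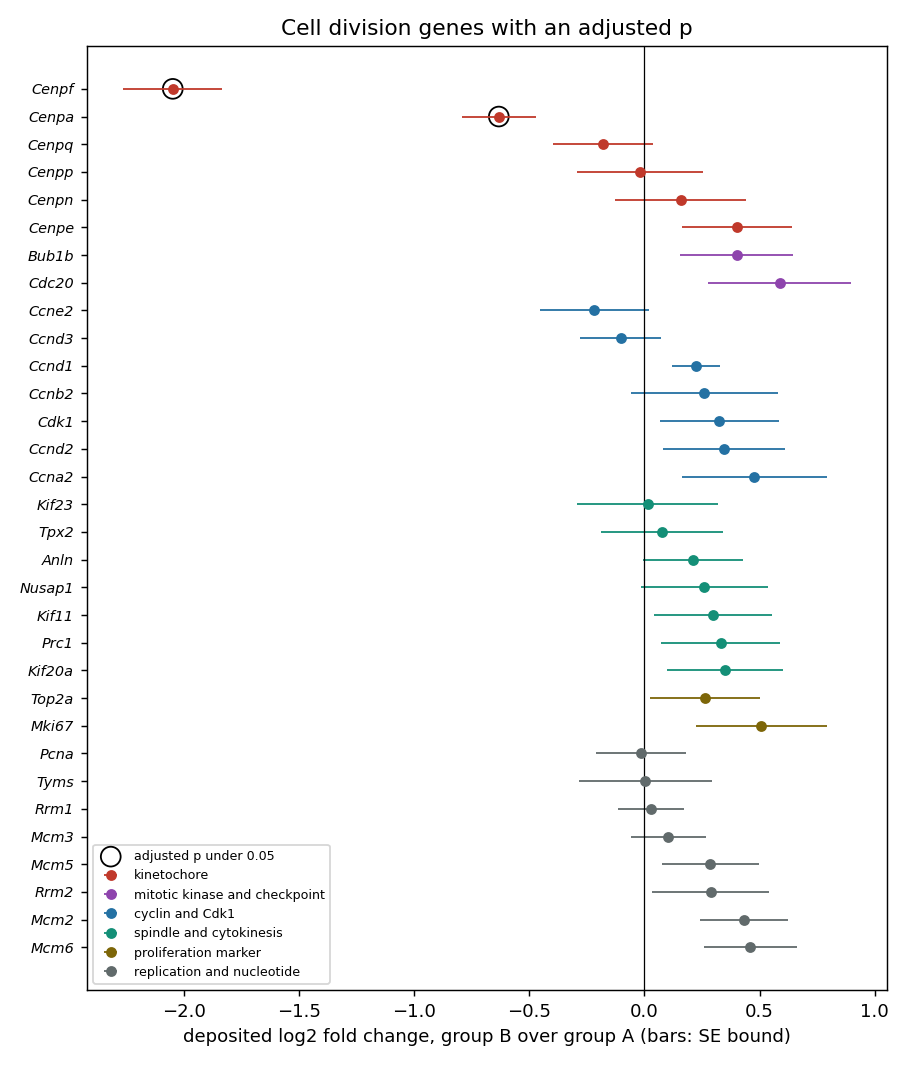
Deposited log2 fold change, group B over group A, of the 32 members with an adjusted p, coloured by role. Bars are 1 standard error, or its upper bound, to each side, and rings mark an adjusted p under 0.05. Cenpf at -2.05 and Cenpa at -0.63 are ringed, and the other 30 points lie between -0.22 and 0.59.

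Cenpf (ENSMUSG00000026605, chromosome 1, 189640599 to 189688086, minus strand, on GRCm38) had a mean normalized count of 783 over both groups per the authors' deposited table. The authors' deposited table put its log2 fold change at -2.05 (standard error 0.22), with an adjusted p of 2.11e-18. With that mean and that fold change, the group levels come to 305 normalized counts in group B and 1261 in group A. By its adjusted p Cenpf stood at rank 13 of 13230 genes per the authors' deposited table. By the size of its difference it ranked 6 among the 329 genes called lower in group B there. The mean of Cenpf is too high for its reads per library to be recovered, so neither the values of its 6 libraries nor a fit without one of them can be given. GENCODE M21 places a processed pseudogene, Gm37239, over its exons on the other strand.

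Genes beside Cenpf on chromosome 1 did not pass the test. Ptpn14, a protein tyrosine phosphatase that lies 40.2 kb away, had a log2 fold change of 0.09 per the authors' deposited table. Smyd2, a lysine methyltransferase at 192 kb, had -0.20 and the homeobox factor Prox1 at 430 kb had 0.36 per the authors' deposited table. On the other side, the potassium channel gene Kcnk2 at 297 kb had 0.26 per the authors' deposited table. Kctd3 at 633 kb had -0.12 and the nuclear receptor Esrrg at 1426 kb had 0.00 there. The smallest adjusted p of these 6 neighbours was 0.462, that of Smyd2.

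Cenpa (ENSMUSG00000029177, chromosome 5, 30666777 to 30674827, plus strand, on GRCm38) had a mean of 340 normalized counts per the authors' deposited table. The authors' deposited table put its log2 fold change at -0.63 (standard error up to 0.16), with an adjusted p of 0.00419. The group levels come to 267 normalized counts in group B and 414 in group A. No exon of another GENCODE M21 gene overlaps its exons. Its nearest tested neighbour Slc35f6, 7.05 kb away, had a log2 fold change of -0.42 and an adjusted p of 0.118 per the authors' deposited table, and Kcnk3, an acid-sensitive potassium channel, had -0.23 there.

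Per length, Cenpf and Cenpa stood above the other mitotic genes. These are the 23 members of the G2 and M phase set other than Cenpa, such as Mki67, Top2a, Cdk1, the B cyclins, the Aurora kinases and the spindle kinesins. Divided by the longest protein-coding transcript of GENCODE M21, the mean normalized count per kb over both groups was 70.4 for Cenpf and 232 for Cenpa. The other 23 ran from 0.90 for Kif14 to 27.0 for Top2a, with a median of 9.03. The level of Cenpf was thus 7.79 times and that of Cenpa 25.7 times this median. On the same scale of level, Cenpf came to 27.4 per kb in group B and 113 per kb in group A, so that its level in group B was close to that of Top2a over both groups. Cenpa came to 182 per kb in group B and 282 per kb in group A. Among the remaining centromere members Cenpq (90.6) and Cenpp (61.0) also stood high per kb, but both share exons with another gene, Cenpq with the abundant Mut. Such levels were not particular to Cenpf and Cenpa. Of the called genes of the wider list below, Hjurp came to 109 per kb, Smc1a to 221 and Cdkn1b to 221. Casc5 and Ckap2 came to 4.11 and 8.87 per kb.

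**Figure D2:**
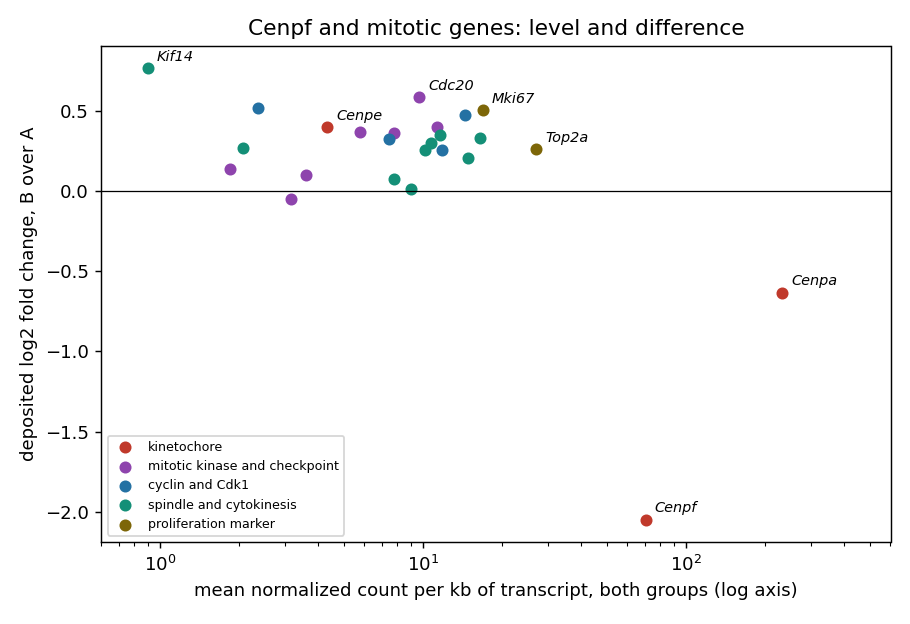
Mean normalized count per kb of transcript over both groups (horizontal, log axis) against the deposited log2 fold change, group B over group A (vertical), for Cenpf and the 24 mitotic members. Cenpf (70.4 per kb, -2.05) and Cenpa (232 per kb, -0.63) lie to the lower right of the other 23, which reach 27.0 per kb.

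The fold change of Cenpf was set against that of every other gene, as the difference of the deposited log2 fold changes over their joined standard errors. This normal test was chosen after the data were seen, takes the errors of 2 genes as independent although both come from the same libraries, and was adjusted by Benjamini-Hochberg over 13229 genes. Cenpf differed from all 15 mitotic members with an adjusted p other than Cenpa, and from Cenpa too. The differences from the 15, member minus Cenpf, ran from 2.06 for Kif23 to 2.64 for Cdc20 on the log2 scale, with a largest adjusted p of 3.63e-08. For Mki67 the difference was 2.56 with a standard error of at most 0.36, for Top2a 2.31 with at most 0.32, and for Cenpa 1.42 with at most 0.27 (adjusted p 1.40e-07). The same test separated Cenpf from 99.9% of all genes, so it marks the size of the group difference of Cenpf and nothing particular to the mitotic genes. The fold change of Cenpa differed from 14 of these 15, all but Kif23, and from 67.3% of all genes. Cenpa was called from these same fold changes, so this count is no separate support for its difference.

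The other kinetochore members did not pass. Cenpe, the kinesin that carries chromosomes along spindle microtubules, had 42.2, 38.4 and 38.2 normalized reads in B1, B2 and B3, against 27.7, 27.6 and 31.3 in A1, A2 and A3. All 3 libraries of group B lay above all 3 of group A. Its log2 fold change was 0.40 with an adjusted p of 0.462 per the authors' deposited table, and the 95% interval ran from -0.07 to 0.87. The proteins of the constitutive centromere network lay nearer 0. Cenpn, which recognises Cenpa nucleosomes, was at 0.16, Cenpp at -0.02 and Cenpq at -0.18 per the authors' deposited table. Cenph and Cenpk had means of 3.54 and 5.67 normalized counts and no adjusted p per the authors' deposited table.

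The proliferation markers were on the opposite side of 0 from Cenpf and did not pass. Mki67, which coats mitotic chromosomes and gives the Ki-67 antigen, had a log2 fold change of 0.51 per the authors' deposited table, with a 95% interval from -0.05 to 1.07. Its group levels come to 199 normalized counts in group B and 140 in group A. Top2a, the topoisomerase that untangles sister chromatids, was at 0.26 per the authors' deposited table with an interval from -0.21 to 0.73. Its levels come to 154 normalized counts in group B and 128 in group A.

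Of the mitotic kinase and checkpoint members only Cdc20 and Bub1b had an adjusted p, and neither passed. Cdc20, the activator of the anaphase-promoting complex, had 25.6, 24.4 and 18.0 normalized reads in B1, B2 and B3, against 19.0, 8.79 and 8.24 in A1, A2 and A3. The lowest library of group B lay below the highest of group A. Its log2 fold change was 0.59 with an adjusted p of 0.366 per the authors' deposited table, the highest value among members with an adjusted p. Bub1b, the checkpoint kinase BubR1, had 47.9, 54.7 and 42.7 normalized reads in group B, against 33.7, 45.2 and 24.7 in group A, and the groups overlapped. Plk1, Aurka, Aurkb, Bub1 and the survivin gene Birc5 had means from 4.06 to 14.9 normalized counts per the authors' deposited table. Aurkb, the kinase of the chromosomal passenger complex, had 14.7, 12.6 and 14.6 normalized reads in group B, against 13.8, 8.79 and 3.29 in group A. At such counts a few reads decide the value, and Plk1 had none in A3.

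Among cyclins, the D type was by far the more abundant. Ccnd2 and Ccnd1, which start G1 and are also made in quiescent tissue, had 381 and 300 normalized counts per kb of transcript, against 2.37 to 14.5 for Ccnb1, Ccnb2 and Ccna2. Ccnd1 had a log2 fold change of 0.23 with an adjusted p of 0.258 per the authors' deposited table, and levels that come to 1210 normalized counts in group B and 1035 in group A. Ccnd2 was at 0.35, Ccnd3 at -0.10 and Ccne2 at -0.22 per the authors' deposited table, and none of them passed. Ccna2, the cyclin of S phase and G2, had 47.9, 45.8 and 68.5 normalized reads in B1, B2 and B3, against 39.8, 46.5 and 9.88 in A1, A2 and A3. A3 was far below the other 5, and the groups overlapped. Cdk1, the kinase of mitotic entry, had 30.7, 36.9 and 44.9 normalized reads in group B, against 31.1, 30.2 and 21.4 in group A.

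All 7 spindle and cytokinesis members with an adjusted p were above 0 per the authors' deposited table, from 0.01 for Kif23 to 0.35 for Kif20a, and none passed. Kif20a, a kinesin of the central spindle, had 37.7, 49.5 and 59.5 normalized reads in B1, B2 and B3, against 37.2, 28.9 and 42.8 in A1, A2 and A3. Prc1, which bundles the midzone microtubules, had 52.4, 45.8 and 74.1 normalized reads in group B, against 45.9, 51.5 and 29.7 in group A. In both genes B3 was the highest library and the groups overlapped. Kif14, a cytokinesis kinesin without an adjusted p and the lowest of all members per kb of transcript, had 14.7, 8.87 and 11.2 normalized reads in group B, against 4.33, 2.51 and 6.59 in group A.

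Replication and nucleotide members had 8 values with an adjusted p and no call. Mcm6 and Mcm2, subunits of the replicative helicase, had log2 fold changes of 0.46 and 0.43 per the authors' deposited table, with adjusted p of 0.219 and 0.221. The levels of Mcm6 come to 221 normalized counts in group B and 161 in group A, and those of Mcm2 to 205 in group B and 152 in group A. Pcna, the sliding clamp, and Rrm1, the large subunit of ribonucleotide reductase, lay at -0.01 and 0.03 per the authors' deposited table, with 95% intervals from -0.40 to 0.37 and from -0.25 to 0.31. E2f1, a transcription factor of the G1 to S transition, had 17.9, 18.5 and 18.0 normalized reads in B1, B2 and B3, against 6.06, 7.54 and 9.88 in A1, A2 and A3. The groups did not overlap. E2f1 had no adjusted p per the authors' deposited table, and in the refit below its adjusted p was 0.180.

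Reads per library were recovered for 30 members. In 4 of the 28 with a mean of at least 5 the groups did not overlap, Cenpe, Ccnb1, Kif14 and E2f1, all with group B above group A. The background of such genes was 18.9% for no overlap in either direction and 13.4% for group B above, so 4 of 28 is near it. A limma-voom refit of the recovered reads called none of the 28 members at an adjusted p under 0.05, and its background was 25 calls among 5310 genes (0.471%). At an unadjusted p under 0.05 it held 3 of the 28, Cdc20, Kif14 and E2f1, against 713 of the 5310 genes (13.4%). By limma with trend the count of members called was also 0.

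Taken as a list, the members lay above all genes in the middle. The median log2 fold change of the 32 members per the authors' deposited table was 0.26, against -0.00 for all 13230 genes, and 25 of 32 were above 0, against 49.9% of all genes. In the refit, 26 of 28 members were above 0, with a median of 0.37 against 0.13 for all genes in it. With scale factors by the trimmed mean of M values the median of all genes moved to -0.01 and that of the members to 0.23, with 23 of 28 above 0. Without A3 the members' median in the refit was 0.21, against 0.13 for all genes, again with 23 of 28 above 0. No single member other than Cenpf and Cenpa passed, and the median gets no test because the members were chosen with results known.

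The libraries behind this were uneven. Summed over the 21 mitotic members with recovered reads, B1, B2 and B3 held 628, 589 and 751 normalized reads, against 513, 577 and 381 in A1, A2 and A3. B2 lay only just above A2. The ratio of the group means was 1.34, and 1.20 without A3. A3, the shallowest library, was the lowest of the 6 in 15 of the 21 genes, and B3 was the highest in 10. The 4 replication members with recovered reads summed to 173, 203 and 192 normalized reads in group B, against 151, 181 and 117 in group A.

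**Figure D3:**
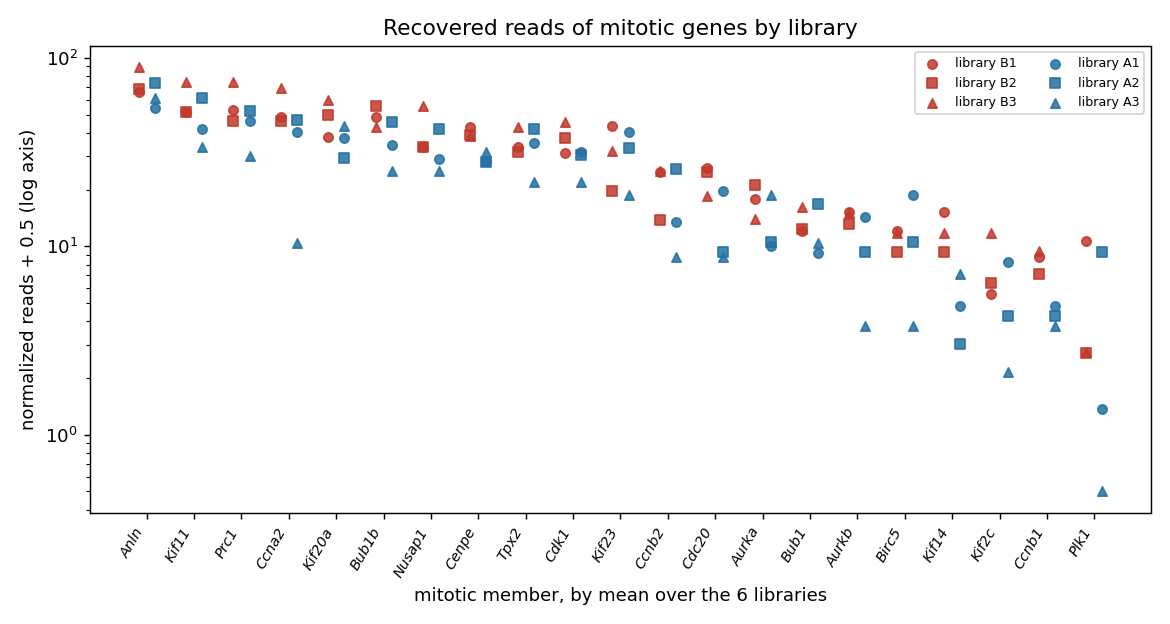
Normalized reads plus 0.5 (vertical, log axis) of the 21 mitotic members with recovered reads, ordered by their mean, with the libraries of group B in red to the left and those of group A in blue to the right. A3 is the lowest point in 15 of 21 genes, and in Plk1 it has no read.

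Markers of other cell types were read in the same libraries. All 5 platelet markers with an adjusted p were higher in group B per the authors' deposited table, and the 5 of the list's 6 genes with recovered reads summed to 709, 328 and 196 normalized reads in B1, B2 and B3, against 55.4, 57.8 and 125 in A1, A2 and A3. Of 6 macrophage markers with an adjusted p, Mrc1 was higher, and all 6 were above 0, per the authors' deposited table. Ptprc, the only lymphocyte list member with an adjusted p, was also higher there, while Cd3e had a mean of 0.46 normalized counts. The 5 red cell genes with an adjusted p had a median of 0.48 and the 8 fibroblast markers one of 0.19 per the authors' deposited table, with no call. The 8 cardiomyocyte markers had a median of -0.13 there, with all 8 below 0, and the 7 endothelial markers one of 0.05. Neither list held a call. Lowest of the 8 were Ryr2 at -0.71 (adjusted p 0.0671) and Myl2 at -0.70 (adjusted p 0.0572) per the authors' deposited table. Of the remaining lists, the nerve marker Dbh was lower per the authors' deposited table, smooth muscle, atrial and neutrophil markers had no call, and the neutrophil gene Elane was listed at 0. The part of all these in the values of the cell division genes was not tested.

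**Figure D4:**
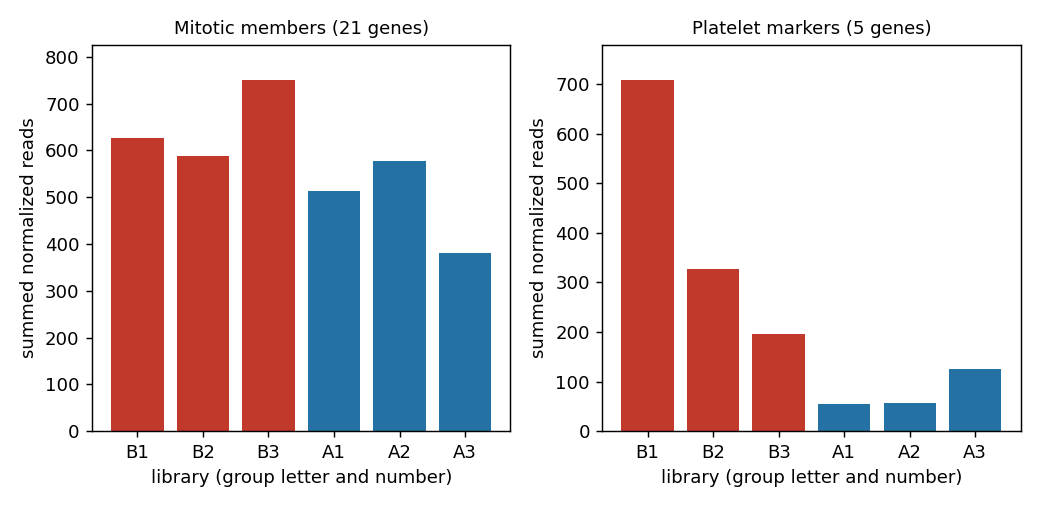
Summed normalized reads per library, those of group B in red and those of group A in blue, for the 21 mitotic members and for 5 platelet markers. The mitotic sums run from 589 to 751 in group B and from 381 to 577 in group A. The platelet sum is highest in B1 at 709 and the mitotic sum is highest in B3, and any relation between these sums was not tested.

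A wider list of 155 other cell cycle genes held 123 with an adjusted p per the authors' deposited table, of which 3 were higher, 2 lower and 118 not called. Against the background of 3.98% of all genes called, 5 of 123 is near that share, and the genes named next are given for their values. Their median log2 fold change was 0.08. Of 22 other centromere and kinetochore genes with an adjusted p, 2 were higher, against 1.5% of all genes. Casc5, also named Knl1, the kinetochore scaffold that recruits Bub1 and Bub1b, had 44.7, 45.8 and 51.6 normalized reads in B1, B2 and B3, against 19.0, 21.4 and 9.88 in A1, A2 and A3. The groups did not overlap. The authors' deposited table put its log2 fold change at 1.16 (standard error up to 0.26), with an adjusted p of 9.43e-04, and the limma-voom refit gave 1.45 with an adjusted p of 0.0600. Hjurp, the chaperone that loads Cenpa onto centromeres, was 1.55-fold higher by its log2 fold change of 0.64 (standard error up to 0.20, adjusted p 0.0447 per the authors' deposited table). Its level comes to 645 normalized counts in group B and 415 in group A, while that of Cenpa was lower in group B.

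Ckap2, a spindle protein, was the single call among 11 mitotic motor and midbody genes, with a log2 fold change of 1.00 and an adjusted p of 0.0360 per the authors' deposited table. It had 30.7, 25.1 and 47.1 normalized reads in group B, against 13.8, 16.3 and 4.94 in group A, and all 11 genes of that sublist were above 0 with a median of 0.48. In the limma-voom refit its adjusted p was 0.161. The cohesin subunit Smc1a was 1.38-fold lower among 15 condensin and cohesin genes (adjusted p 0.00867 per the authors' deposited table). Cdkn1b, the Cdk inhibitor p27, was 1.29-fold lower among 25 genes of Cdks, their inhibitors, E2F, Rb and the DREAM complex (adjusted p 0.0315 per the authors' deposited table). None of the 28 replication genes passed, the nearest being Rfc5 at 0.56, and none of the 12 checkpoint and passenger genes, the nearest being Mad1l1 at -0.42 per the authors' deposited table. Of 11 tested genes whose proteins are reported to bind Cenpf, such as Nde1, Ndel1 and Nup133, none passed, and the nearest was the mitochondrial GTPase gene Rhot2 at -0.27 with an adjusted p of 0.0996 per the authors' deposited table.

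Some members carry a counting limit. Exons of 11 members overlap those of another protein-coding gene on the other strand, so without strand their values are uncertain: Ccna2, Ccnd1, Ccnd3, Ccne2, Cdc20, Cenpk, Cenpp, Cenpq, Kif20a, Nusap1 and Prc1, and no source states whether the counting used strand. For 5 members, Ccnb1, Ccnb2, Ccnd3, Pcna and Tyms, GENCODE M21 names a pseudogene after the gene, so their reads may be shared. Processed pseudogenes also lie over exons of Kif11 and Kif14 on the same strand, and over those of Cenph on the other strand. None of these limits applies to Cenpf or Cenpa by these measures, apart from the pseudogene on the other strand of Cenpf.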

How the data were processed

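RNA-seq of mouse cardiac ventricle was read from 1 table. Per the submitters' processing notes, tools included Bowtie2 2.0 and DESeq2 and the build was mm9. The counting step, with its handling of strand and of reads with several matches, is not stated there. Per the file headers the table gives a mean normalized count, a signal made of reads over a size factor and averaged over both groups. Its log2 fold change and adjusted p-value are the authors' own, and that fold is smaller in low genes than the ratio of recovered means (2.24-fold per the authors' deposited table against 2.83 for Casc5). The file held 0 unused columns of single samples. Identical coordinates in GENCODE M21 for 69.6% of 36602 matched identifiers place the table on GRCm38, so that build is given.

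The 44 members and all lists were chosen with earlier results of these data known. Calls are the authors', at an adjusted p under 0.05. All members could be named; of the wider lists, each called gene or the one with the smallest adjusted p per sublist was named, and 3 tested neighbours on each side. Standard errors came from inverting the Benjamini-Hochberg adjustment over 13230 genes and are upper bounds where genes share an adjusted p. Group levels solve the mean and the fold change, and carry the shrinkage. Means shared by many genes gave the step of 1 read in each of 6 libraries; the sign of those genes' fold change gave the letter. For means under 100, 13356 of 13403 genes (99.6%) had exactly 1 set of whole reads that rebuilt the mean, within a relative difference of 5.30e-15. These were refitted with limma 3.58.1 (voom, means of at least 5, the recovered size factors) in R 4.3.3. Recovery, refit and difference test were tested on simulated data. For the difference test the simulated errors of gene and reference were independent, so that run could not show an effect of shared libraries. The design's tests of Cenpf per library were not run, since its mean is above 100. With 3 libraries a group, an exact permutation test cannot go below 0.10, so none is given.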

Additional observations from a re-analysis of the deposited data

How the results depend on the processing

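Cenpf and Cenpa were the members called at thresholds of 0.01, 0.05 and 0.1 on the deposited adjusted p. The limma-voom fit of recovered reads called 0 of the members, since it holds neither Cenpf nor Cenpa. Cenpf differed from 16 of 16 mitotic members, Cenpa included, at adjusted p under 0.05 and under 0.01. At 0.05 it differed from 99.9% of all genes, so this count shows nothing particular to the mitotic genes. Cenpa differed from 14 of 15 at 0.05, against 67.3% of all genes, and from 11 of 15 at 0.01. At 0.01 Ccnb2, Nusap1 and Tpx2 joined Kif23 in not passing, and no share of all genes is given there. The median deposited log2 fold change of the members was 0.26 over all 44, and 0.26 over the 31 with an adjusted p other than Cenpf. From recovered group means it was 0.43, over 28 members that include neither Cenpf nor Cenpa. Over the same 28 it ran from 0.24 (without A3) to 0.51 (without A2) when 1 library was left out. All these medians were above 0, but in the refit of recovered reads so was the median of all genes, at 0.13. With factors by the trimmed mean of M values that median of all genes was -0.01. The recovered ratios carry no shrinkage and cover fewer members, so their sizes do not compare with the deposited ones. The refit called 0 members under each alternative run, that is, no minimum mean, factors by the trimmed mean of M values, limma with trend and each library left out, while its calls among all genes ran from 0 without A1 or A2 to 168 without B3 when a library was left out, and reached 227 with no minimum mean. No paired analysis was possible because the libraries carry no replicate numbers. Fits of Cenpf on recovered reads (group means, limma-voom, pseudocounts, minimum means, other factors, a library left out) were not run, since its reads were not recovered. Depth limits the 12 members without an adjusted p, whose values rest on few reads per library. Intervals and errors cover these libraries only.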
